A study of Sus scrofa with 9 samples.

Results

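The HSP70 and HSP110 chaperones of the cytosol were examined through 5 genes, HSPA6, HSP70.2, HSPA8, HSPA4 and HSPH1, chosen by name from the 20681 genes of an RNA sequencing table. HSP70 proteins hold and release unfolded stretches of other proteins in a cycle driven by ATP. J-domain proteins (HSP40) bring clients and start ATP hydrolysis, and nucleotide exchange factors, among them the HSP110 proteins, release ADP so that the client can leave. HSPA8 (HSC70) is the copy that cells express at all times, HSPA6 and the HSPA1 genes are the copies induced by stress through heat shock factor 1 (HSF1), and HSPA4 and HSPH1 are HSP110 proteins. In many mammals the testis is kept cooler than the body, and heat exposure of testicular cells is a classical setting for studying these genes.

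Total RNA was sequenced from cultured cells labelled as porcine immature Sertoli cells, the somatic cells of the seminiferous cords, taken from testis at 80 to 90 days of gestation. There were 3 groups of 3 libraries. The control was harvested unheated, HS0.5 directly after 0.5 h at 43 °C (0 h of recovery), and HS0.5-R36 after an identical exposure followed by 36 h at 37 °C. All were grown in medium with 10% serum at 37 °C and 5% CO2 and were seeded 6 h before the heat, and no transgene or allele is named. An unheated culture kept for the extra 36 h is not among the groups, so recovery from heat and time in culture cannot be told apart in any comparison with HS0.5-R36. The labels do not say whether the replicates are separate cultures, so the p-values measure only the spread between these libraries.

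Levels are FPKM, fragments mapped to a gene, scaled by its length and by the depth of the library. Reads recovered from FPKM and gene length came to between 18110565 and 21034021 per library. The scale of the HS0.5-R36 libraries differed from the rest, since their FPKM imply library sizes of 1.17 to 1.19 times the recovered reads, against 0.902 to 0.973 times in the other 6 libraries. Bringing all libraries to the same summed FPKM moved the median log2 change of all tested genes by 0.30 in both comparisons with HS0.5-R36. Values below are as deposited unless they are said to be rescaled. Of 13 Sertoli markers, 10 matched a gene and 4 reached a mean of 1 FPKM (SOX9, WT1, AMH and VIM), while INHA, DMRT1, DHH, NR5A1 and KITLG were at or near 0 in all 9 libraries. The summed marker level, most of it VIM, was 3606 to 4695 FPKM before heat, 3953 to 3992 FPKM at its end and 1171 to 1303 FPKM after recovery. The 9 matched kidney tubule markers of 12 all reached 1 FPKM, with sums of 132 to 138, 108 to 116 and 434 to 461 FPKM in the same order. AQP1 alone of these had a lower mean after recovery than before heat (1.78 against 2.07 FPKM). The 6 matched epithelial markers of 8 also all reached 1 FPKM, with sums of 727 to 1125, 749 to 766 and 564 to 689 FPKM. ESRP1 alone of these had a higher mean after recovery than before heat (16.9 against 8.47 FPKM). The part of these markers in the results was not tested, and in bulk RNA fewer cells of a type and less RNA per cell cannot be told apart.

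At the end of the heat, the inducible HSP70 genes HSPA6 and HSP70.2 and the HSP110 gene HSPH1 were raised, and HSPA8 and HSPA4 were higher in every heated library without passing the test. After 36 h, HSPA6 was again near 0, at a mean of 0.101 FPKM against 0.0272 in control. Every recovered library was above every control for HSPA6, without passing the test. HSP70.2 was still raised, and HSPA4 and HSPH1 were lower than in control. HSPA8 was lower as well on the deposited scale, with a change that depended on the scaling. Each test compared log2(FPKM + 1) with limma, adjusted by the Benjamini-Hochberg method over 11479 genes, and a gene was called at an adjusted p below 0.05. Changes below are on that log2(FPKM + 1) scale, which understates changes of genes near 0.

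In HS0.5 against control, 3 of the 5 genes were called higher and none lower, where 2.29% of all tested genes were called higher, 1.32% lower and 3.62% in either direction. All 5 were higher in HS0.5 without overlap between the groups, as were 20.5% of all tested genes (20% were lower without overlap). In HS0.5-R36 against control, 3 were called lower and 1 higher, where 34.6% of tested genes were called lower, 28.5% higher and 63.1% in either direction, so calls were common among all genes. Without overlap, 3 of the 5 were lower and 2 higher, beside 36.4% and 30.5% of tested genes. In HS0.5-R36 against HS0.5, all 5 were called lower, where 35% of tested genes were called lower, 28.8% higher and 63.8% in either direction. All 5 were lower without overlap, beside 41.6% of tested genes lower and 33.6% higher. The median change of the 5 was 1.14, -0.44 and -2.06 in the 3 comparisons, beside -0.01, -0.06 and -0.07 for all tested genes. The comparisons share groups and are not independent of each other. Control replicate 2 stood apart from the other controls, with the lowest limma library weight of the 9 (0.0651, where the highest was 8.88). Without it the changes at the end of heat were 5.34 for HSPA6, 4.27 for HSP70.2, 0.48 for HSPA8, 0.25 for HSPA4 and 1.11 for HSPH1, and at 36 h against control they were 0.09, 0.79, -0.32, -0.96 and -0.95 in the same order. The call of HSPA8 at the end of heat was the 1 call that this altered. One of the 5, HSPA6, entered the test only through its values in HS0.5, since it reached 1 FPKM in those 3 libraries alone, so it had to differ there.

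**Figure D1:**
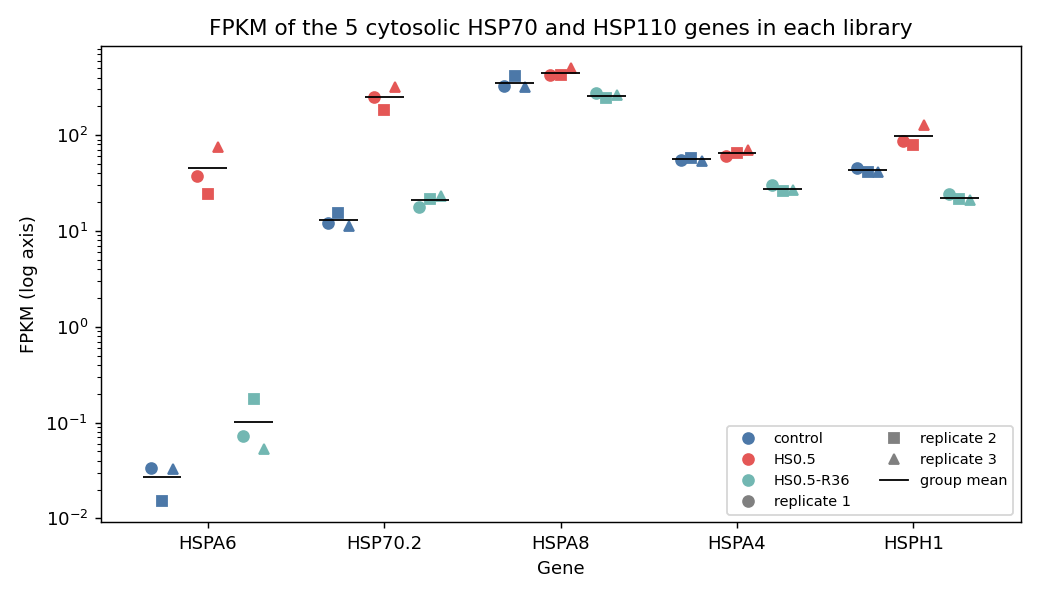
FPKM (log axis) of each gene in each of the 9 libraries, with colour for the group, marker shape for the replicate and a bar for the group mean. HSPA6 moves from 0.0153 to 0.0335 FPKM in control to 24.0 to 75.2 in HS0.5, whereas HSPA8 stays between 243 and 508 FPKM in all libraries.

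HSPA6 encodes an HSP70 protein (HSP70B′ in human) that is nearly silent in unstressed cells and has no counterpart in mouse or rat. The gene, ENSSSCG00000047932, lies on chromosome 4 from 88970591 to 88985586 on the minus strand in the coordinates of the deposited table, for which the sources used here name no build. In control it was at 0.0335, 0.0153 and 0.0329 FPKM, which is 2, 1 and 2 recovered reads. In HS0.5 it reached 37.3, 24.0 and 75.2 FPKM from 2224, 1428 and 4580 reads. In HS0.5-R36 it was at 0.0724, 0.178 and 0.0535 FPKM from 6, 14 and 4 reads. Every heated library was thus far above every control and every recovered library, and the expression rank among 20681 genes went from 15528 in control to 1191 in HS0.5 and back to 14458.

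The change of HSPA6 at the end of heat was 5.35 ± 0.32 (SE, n = 3 a group, limma adjusted p = 6.5e-05), the largest rise of all tested genes. HSPA6 entered the test only through its values in HS0.5, so the p-values and ranks of its rise and fall are no separate support. Between HS0.5 and HS0.5-R36 HSPA6 fell by 5.25 on the same scale (limma adjusted p = 1.4e-06), likewise the largest fall, and by 5.12 after rescaling to the same sum. Pooled reads were also compared, corrected for the library size that FPKM imply. There, 8232 reads in HS0.5 stood against 5 in control, a ratio of 1698 with a 95% interval of 727 to 5231 that covers counting error only. With a pseudocount of 0.1 in place of 1, the log2 change was 8.33 and with voom on the recovered reads it was 10.2, so its size depends on how the near-zero control values are handled. At 36 h, 0.163% of the rise in FPKM was left. The 3 recovered libraries lay above the 3 controls without overlap, and the change was 0.10 ± 0.32 (limma adjusted p = 0.8). This SE is shared by the 3 groups and carries the spread of HS0.5, falling to 0.15 without HS0.5 replicate 3. The test could thus not detect a small difference between control and HS0.5-R36. The ratio of 24 to 5 reads, corrected for the library size that FPKM imply, was 3.77 (1.41 to 12.7, counting error only). This ratio carries the differing scale of the HS0.5-R36 libraries, but the difference was not smaller after rescaling to the same sum (TPM). On that scale HSPA6 averaged 0.0781 in control (0.0378 to 0.0986) and 0.361 in HS0.5-R36 (0.188 to 0.641). The change was then 0.12 (limma adjusted p = 0.74), against 0.10 as deposited.

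HSP70.2 is the pig's HSPA1-type inducible HSP70. Its row has no symbol in the file and was found by its identifier, ENSSSCG00000029160, whose description there is that of HSP70 protein 1B. It lies on chromosome 7 from 23914603 to 23928196 on the plus strand, next to HSPA1L in the reference annotation (Sscrofa11.1). The control libraries held 12.1, 15.3 and 11.3 FPKM. The HS0.5 libraries held 249, 182 and 319 FPKM, and the HS0.5-R36 libraries 17.9, 21.8 and 23.3 FPKM. The groups did not overlap, and the recovered libraries sat just above the controls and far below the heated ones.

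The rise of HSP70.2 at the end of heat was 4.15 ± 0.20 (SE, n = 3 a group, limma adjusted p = 5.8e-05), the second largest of all tested genes, or 19.4-fold in mean FPKM. From HS0.5 to HS0.5-R36 HSP70.2 fell by 3.48 (limma adjusted p = 1e-06), and after rescaling to the same sum it fell by 3.15 (limma adjusted p = 8.9e-07). Of the rise in FPKM, 3.41% was left at 36 h. Against control the remaining rise was 0.66 ± 0.20 (limma adjusted p = 0.016), or 1.63-fold, and 1.00 after rescaling to the same sum (limma adjusted p = 0.00097). Leaving out control replicate 3 took the call away (0.58, limma adjusted p = 0.05, just above the threshold), as did leaving out HS0.5-R36 replicate 3 (0.59, limma adjusted p = 0.056). Pigs carry near-identical HSPA1 copies, and no row here carries the symbol HSPA1A or HSPA1B, so how reads were shared among copies is uncertain. The HSP70.2 row spans 13594 base pairs with a gene length of 3583, and whether it holds other copies was not tested. HSPA1L, whose row overlaps that of HSP70.2 on the opposite strand, received 7 reads over the control libraries, 82 over HS0.5 and 39 over HS0.5-R36. The sources used here do not say whether counting used the strand, so reads from the overlap cannot be assigned between them.

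HSPA8, ENSSSCG00000015140, encodes the HSC70 protein that folds new proteins and strips clathrin coats in unstressed cells. It lies on chromosome 9 from 49982284 to 49990508 on the minus strand. Control libraries held 326, 419 and 319 FPKM, HS0.5 libraries 422, 424 and 508, and HS0.5-R36 libraries 274, 243 and 260. It was the most abundant of the 5 in every library, and ranked 119th, 79th and 105th among all genes in the 3 groups. The groups were ordered without overlap, HS0.5 above control above HS0.5-R36, although control replicate 2 came close to the lowest heated library.

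The change of HSPA8 at the end of heat was 0.35 ± 0.13 (SE, n = 3 a group, limma adjusted p = 0.12) and was not called, but it was called without control replicate 2 (0.48, limma adjusted p = 0.029). From HS0.5 to HS0.5-R36 it fell by 0.79 (limma adjusted p = 0.00052), and by 0.45 after rescaling to the same sum (limma adjusted p = 0.0011). Against control the value at 36 h was -0.44 ± 0.13 (limma adjusted p = 0.014), or 73.0% of the control mean. This last difference did not hold on other scales, being -0.10 after rescaling to the same sum (limma adjusted p = 0.34) and 0.15, in the opposite direction, after quantile normalization (limma adjusted p = 0.22). It also lost its call without HS0.5-R36 replicate 2 (-0.40, limma adjusted p = 0.055).

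Inside the HSPA8 row the file lists 2 small nucleolar RNA genes named SNORD14, on the same strand, at 49983696 to 49983781 (ENSSSCG00000031725) and 49984113 to 49984199 (ENSSSCG00000039904). SNORD14 RNAs guide methylation of ribosomal RNA. The pair was singled out after its values were seen. The first held 7, 5 and 7 reads in control, 20, 12 and 33 after heat, and 1, 4 and 4 after recovery. The second held 3, 0 and 6 reads in control, 11, 17 and 13 after heat, and 0, 0 and 1 after recovery. Both were higher in every heated library than in any other, by 3.53-fold over control for the first (95% interval 2.09 to 6.23, counting error only) and 4.70-fold for the second (2.25 to 11).

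The SNORD14 rises were not called (1.5 ± 0.36, limma adjusted p = 0.057, and 2.01 ± 0.48, limma adjusted p = 0.056), with 4 of the 180 tested small nucleolar RNA genes called higher, 13 lower and a median of -0.23. The first was called without HS0.5-R36 replicate 1 (limma adjusted p = 0.039), and the second without control replicate 2 (1.37, limma adjusted p = 0.031) or control replicate 3 (2.51, limma adjusted p = 0.026). From HS0.5 to HS0.5-R36 both fell, by 2.57 (limma adjusted p = 0.00022) and 3.09 (limma adjusted p = 0.0004), the lowest changes of the 180, whose median was -0.71, and after rescaling by 2.33 (limma adjusted p = 0.00054) and 2.97 (limma adjusted p = 0.0005). The file also lists 2 SNORD14 genes on chromosome 2, outside HSPA8. One of them (ENSSSCG00000018524) held 12.6, 26.5 and 9.90 FPKM in control, 13.9, 19.0 and 29.0 after heat, and 8.16, 8.11 and 10.6 after recovery. The other (ENSSSCG00000018117) held 6.29, 4.61 and 4.33 FPKM, then 4.41, 0.633 and 0.617, then 0, 0.477 and 3.02. In both, the heated and control libraries overlapped. The read counts of the HSPA8 pair are small, and reads of a row within another row cannot be told from reads of its host transcript.

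HSPA4 (APG-2), an HSP110 protein that exchanges nucleotide on HSP70, is ENSSSCG00000014292 on chromosome 2 from 135305749 to 135394185 on the plus strand. The libraries held 55.0, 58.5 and 54.0 FPKM in control, 60.5, 65.4 and 69.4 after heat, and 30.2, 26.1 and 26.7 after recovery. The recovered libraries stood well below the rest, and the heated ones slightly above the controls. At the end of heat the change was 0.22 ± 0.09 (SE, n = 3 a group, limma adjusted p = 0.14). It was 0.06 after a trend with gene length was removed (limma adjusted p = 0.71). At 36 h HSPA4 had fallen by 0.99 against control (SE 0.09, limma adjusted p = 1.2e-05), to 49.6% of the control mean, and by 0.65 after rescaling to the same sum (limma adjusted p = 0.00011). Relative to HS0.5, HSPA4 fell by 1.21 (limma adjusted p = 3.4e-06), and by 0.87 after rescaling (limma adjusted p = 1.6e-05). Its neighbour ZCCHC10 in the reference annotation (Sscrofa11.1) was not matched to a row, so whether the HSPA4 row includes that gene is not known here.

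HSPH1 (HSP105), the stress-inducible HSP110 protein, is ENSSSCG00000009334 on chromosome 11 from 7733874 to 7759576 on the minus strand. The libraries held 45.9, 41.7 and 41.8 FPKM in control, 86.7, 78.9 and 129 after heat, and 24.3, 21.4 and 21.0 after recovery. The 3 groups were fully separated, with the heated libraries highest and the recovered ones lowest. HSPH1 rose by 1.14 ± 0.16 at the end of heat (SE, n = 3 a group, limma adjusted p = 0.0087), 2.28-fold in mean FPKM and the 33rd largest rise of the tested genes. By 36 h it had fallen by 0.93 against control (SE 0.16, limma adjusted p = 0.00089), to 51.6% of the control mean, and by 0.59 after rescaling to the same sum (limma adjusted p = 0.012). Relative to HS0.5, HSPH1 fell by 2.06 (limma adjusted p = 6.1e-06), and by 1.73 after rescaling (limma adjusted p = 1.8e-05).

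HSPA4L, the remaining HSP110 gene, was not matched by symbol. A row under the symbol PLK4, a centriole kinase, has a description in the file that names the HSPA4L protein, so its reads may come from either gene. That row held 5.87, 3.92 and 5.86 FPKM in control, 6.53, 6.94 and 8.03 after heat, and 4.54, 3.28 and 3.58 after recovery. The PLK4 row was below HSPA4 and HSPH1 in every library, and its change at the end of heat, 0.41 ± 0.15, was not called (limma adjusted p = 0.13).

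**Figure D2:**
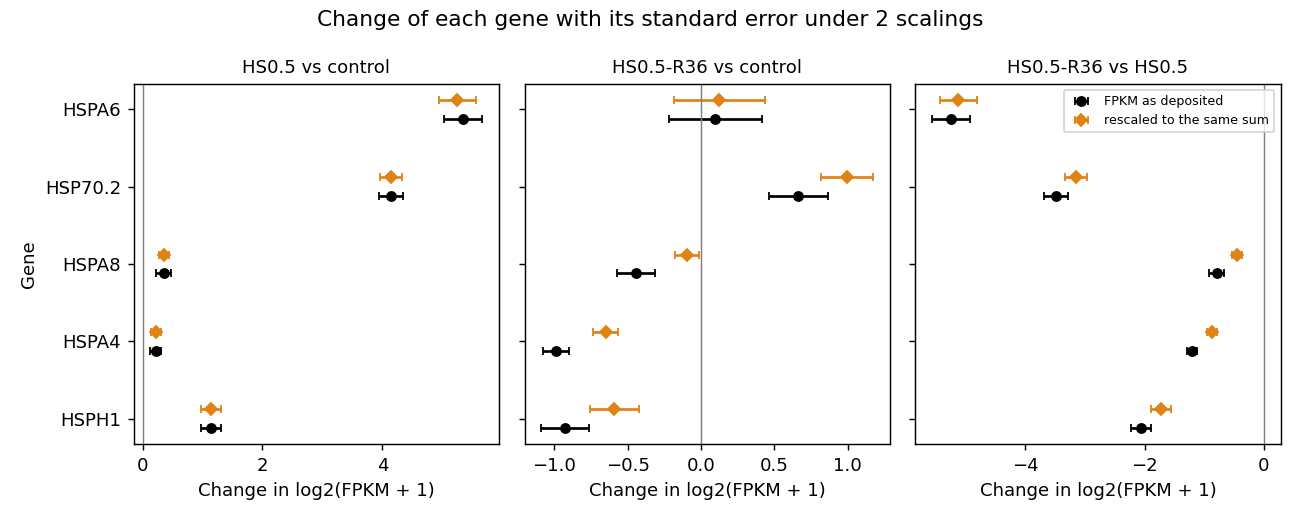
Change of each gene on the log2(FPKM + 1) scale with its standard error in the 3 comparisons, as deposited (circles) and after rescaling to the same sum (diamonds). At the end of heat the scales give like values, and at 36 h against control rescaling moves HSPA8 from -0.44 to -0.10, while quantile normalization, not drawn, gives 0.15.

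The order of the levels, which FPKM allows because it is set per length of gene, differed between groups. In control it was HSPA8, HSPA4, HSPH1, HSP70.2 and HSPA6, with no overlap between neighbours. In HS0.5 HSP70.2 stood second, below HSPA8, HSPH1 came next, and HSPA4 (60.5 to 69.4 FPKM) and HSPA6 (24.0 to 75.2) overlapped. In HS0.5-R36 the control order was back, except that HSPH1 (21.0 to 24.3) and HSP70.2 (17.9 to 23.3) overlapped. HSP70.2 was above HSPH1 in replicate 2 (21.8 against 21.4 FPKM) and replicate 3 (23.3 against 21.0 FPKM), and below it in replicate 1.

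The 5 genes summed to 467 ± 59.2 FPKM in control (SD, n = 3). Heated libraries summed to 910 ± 170 FPKM and recovered libraries to 330 ± 17.1 FPKM. HSPA8 supplied 75.8% of the control sum, 50.1% of the heated and 78.5% of the recovered one. HSPA6 and HSP70.2 together supplied 2.76%, 32.0% and 6.42%. Most of the inducible share in HS0.5 came from HSP70.2, which made up 27.2% of the sum in HS0.5 against 4.76% for HSPA6. The HSP110 genes differed from each other, HSPA4 going from 12% to 7.28% and 8.38%, and HSPH1 from 9.35% to 10.7% and 6.74%. On a scale where all genes sum to the same total, TPM, the sums were 1293 ± 23.6, 2536 ± 424 and 1169 ± 46.4 in the same order (SD, n = 3), so the recovered libraries lay closer to control than in FPKM.

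**Figure D3:**
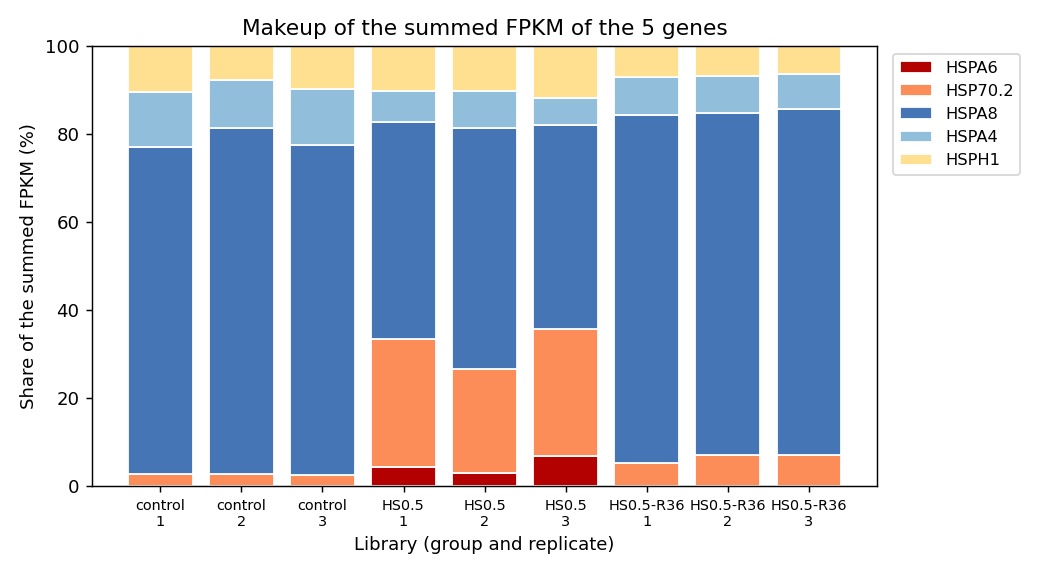
Share of the summed FPKM of the 5 genes taken by each gene, as stacked bars for the 9 libraries. HSPA8 fills 75.8% of the bars of control on average and 50.1% of those of HS0.5, where HSP70.2 takes 27.2% and HSPA6 4.76%.

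Ratios of 2 genes within a library do not depend on a factor that scales the whole library. Corrections that differ between genes, such as quantile normalization, can alter them. In control, HSP70.2 stood at 0.0354 to 0.0371 of the HSPA8 level, in HS0.5 at 0.428 to 0.629, and in HS0.5-R36 at 0.0654 to 0.0896. The log2 ratio of HSP70.2 to HSPA8 was thus higher by 3.90 in HS0.5 and by 1.15 in HS0.5-R36 than in control, without overlap. The log2 ratio of HSPH1 to HSPA4 was higher by 0.93 in HS0.5 than in control, again without overlap, and in HS0.5-R36 it differed from control by 0.06, with overlap. The log2 ratio of HSPA6 to HSP70.2 was -8.96 in control, then -2.58 at the end of heat and -7.88 after recovery, and the last overlapped with control. In two-sided exact permutation tests every ratio without overlap had p = 0.1, the smallest that 3 libraries against 3 allow, and 0.13 after adjustment over the 9 tests, so none could pass 0.05.

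**Figure D4:**
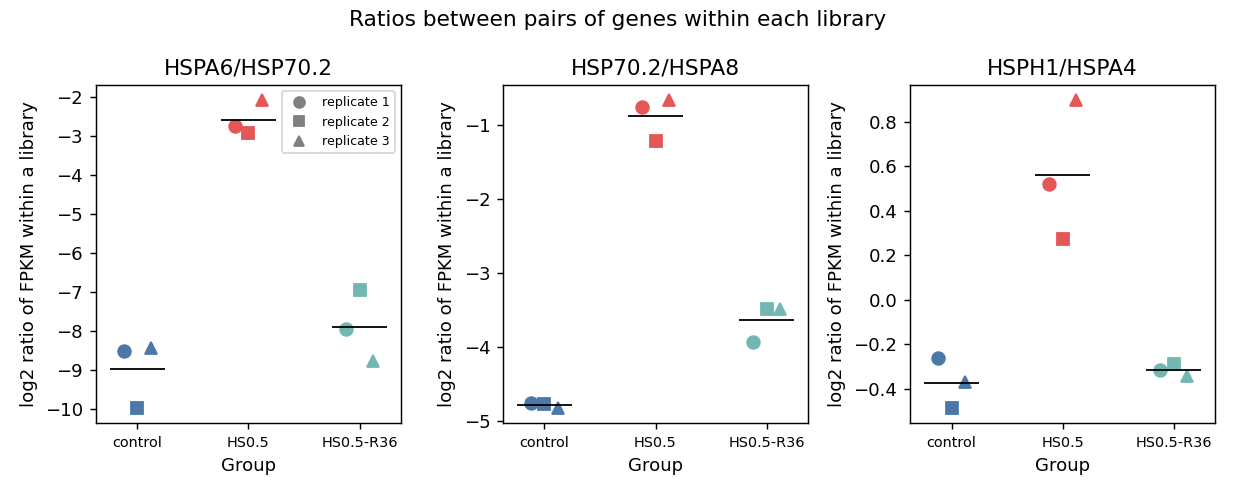
Log2 ratio of FPKM between 2 genes in each library, by group, with marker shape for the replicate and a bar for the mean. The log2 ratio of HSP70.2 to HSPA8 averages -4.78, -0.88 and -3.63 in control, heated and recovered libraries, and that of HSPH1 to HSPA4 averages -0.37 in control and -0.32 in HS0.5-R36.

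The heated libraries differed most among themselves in the genes that had risen. In HS0.5 the highest library exceeded the lowest 3.13-fold for HSPA6, 1.76-fold for HSP70.2 and 1.64-fold for HSPH1, and 1.2-fold for HSPA8 and 1.15-fold for HSPA4. HS0.5 replicate 3 was the highest of its group for all 5 genes, and it was also the highest for 41.7% of all tested genes. Its share of mitochondrial reads was 6.04%, against 4.58% and 5.32% in the other HS0.5 libraries, 4.0% to 4.16% in control, and 6.70%, 4.46% and 4.74% in HS0.5-R36, whose replicate 1 had the highest share of the 9 libraries. The part of these shares in the spread was not tested. Without HS0.5 replicate 3 the rises at the end of heat were 4.91 for HSPA6, 3.95 for HSP70.2 and 0.92 for HSPH1, each still called (limma adjusted p = 1.8e-05, 0.00011 and 0.0085).

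For each gene the tested genes with a symbol were ranked by how closely their centred log2(FPKM + 1) profile followed it over the 9 libraries, as the root mean square difference in log2 units. Nearest to HSPA6 was HSP70.2 (0.78), followed by DNAJB1 (1.24), a J-domain partner, and SNORD88C (1.69), a small nucleolar RNA gene. Nearest to HSP70.2 was DNAJB1 (0.61), followed by HSPA6 (0.78) and SNORD88C (1.08). For HSPH1 the nearest were DUSP1 (0.21), a phosphatase of MAP kinases, RND3 (0.22), a small GTP-binding protein, and FBXO5 (0.26), an inhibitor of the anaphase-promoting complex. HSPA8 was closest to SMAD5 (0.073), a BMP signal transducer, and HSPA4 to GSPT1 (0.033), a translation termination factor. The difference grows with the size of a profile, so values are to be read within a gene and not between genes.

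Among partners and regulators of HSP70, 4 genes were called at the end of heat, each higher, where 2.29% of all tested genes were called higher and 1.32% lower. The lists are small. Of 13 tested J-domain partners, 2 were called higher and none lower (list median 0.07). DNAJB1, which works with HSP70 on aggregates and on HSF1, went from 27.6 to 182 FPKM, by 2.66 ± 0.15 (SE, n = 3 a group, limma adjusted p = 6.5e-05). DNAJB4, a close relative of DNAJB1, went from 3.39 to 6.65 FPKM (0.78, limma adjusted p = 0.021). Of 15 exchange factors and cofactors, BAG3, which links HSP70 to autophagy, was the 1 called, from 11.3 to 25.5 FPKM (1.07, limma adjusted p = 0.015; list median 0.13).

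Of 10 heat shock factors and regulators, HSP90AA1, the inducible HSP90 that binds HSF1, was the 1 called, from 529 to 843 FPKM (0.67, limma adjusted p = 0.021; list median -0.05). BAG3, DNAJB4 and HSP90AA1 were no longer called when control replicate 1 was left out (limma adjusted p = 0.055, 0.068 and 0.072) or when HS0.5 replicate 1 was (limma adjusted p = 0.058, 0.052 and 0.053). HSP90AA1 was also lost without HS0.5 replicate 2 (limma adjusted p = 0.063) or 3 (limma adjusted p = 0.097). None of 12 other HSF1 targets (median -0.02) and none of 6 other HSP70 superfamily genes (median 0.07) was called. The most abundant of each were UBB, a polyubiquitin gene, at 803 and 815 FPKM in control and HS0.5, and HSPA5 (BiP), the HSP70 of the endoplasmic reticulum, at 747 and 740 FPKM.

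**Figure D5:**
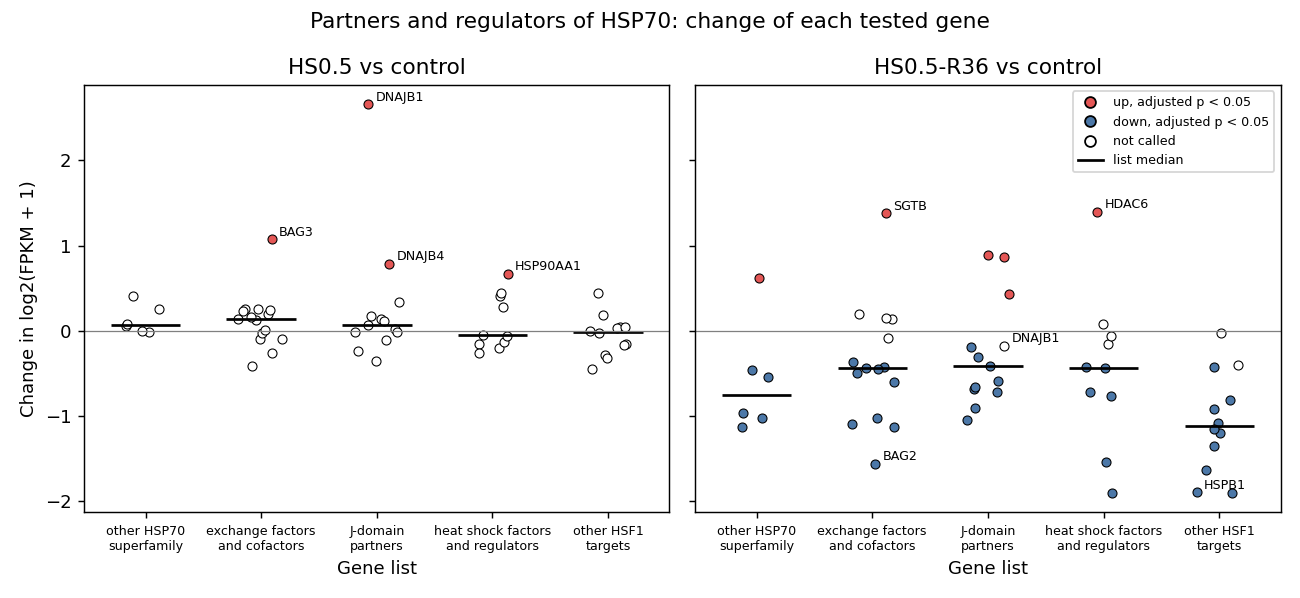
Change on the log2(FPKM + 1) scale of each tested gene of the 5 partner lists, at the end of heat (left) and at 36 h (right), both against control; filled points passed the test and bars are list medians. At the end of heat 4 genes passed, all of them higher, and at 36 h most points lie below 0 on the deposited scale, on which DNAJB1 is near its control level.

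At 36 h against control, genes of the HSP70 system were mostly lower on the deposited scale, and fewer were after rescaling to the same sum. Of all tested genes, 34.6% were called lower and 28.5% higher as deposited, and 19.5% lower and 43.8% higher after rescaling, and the counts below are to be read beside these shares. The 20 genes of the lists named here as called at 36 h against control were also called in the same direction after rescaling, with changes higher by 0.22 to 0.35. Of the 6 other HSP70 superfamily genes 5 were called lower and 1 higher (median -0.76), and 3 lower and 1 higher after rescaling. HSPA5 went from 747 to 380 FPKM (-0.97, limma adjusted p = 3.2e-05), HSPA9 (mortalin), the mitochondrial HSP70, from 257 to 117 FPKM (-1.13, limma adjusted p = 5e-06), and HSPA14, a ribosome-associated HSP70, fell by 1.02 (limma adjusted p = 1.4e-05). HSPA12A, a divergent HSP70, rose by 0.63 (limma adjusted p = 0.00067). Of the 15 exchange factors and cofactors, 10 were called lower and 1 higher (median -0.44), and 5 lower and 5 higher after rescaling (median -0.10). BAG2, which inhibits the CHIP ubiquitin ligase, fell by 1.57 (limma adjusted p = 4.8e-07), CHORDC1, an HSP90 co-chaperone, by 1.13 (limma adjusted p = 1.4e-05) and STIP1 (HOP), which bridges HSP70 and HSP90, by 1.10 (limma adjusted p = 3e-06). SGTB, a small glutamine-rich co-chaperone, rose by 1.38 (limma adjusted p = 0.00035).

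Of the 13 J-domain partners 9 were called lower and 3 higher at 36 h (median -0.41), and 6 lower and 3 higher after rescaling (median -0.07). Those higher were DNAJB2, a J-domain protein that binds ubiquitin (0.89, limma adjusted p = 0.00015), DNAJB4 (0.87, limma adjusted p = 0.00048) and DNAJB5 (0.43, limma adjusted p = 0.0058), and the lowest was DNAJC9, a histone chaperone (-1.05, limma adjusted p = 6.7e-06). DNAJC2, a ribosome-associated J-domain protein, fell by 0.91 (limma adjusted p = 0.00026) and DNAJC8 by 0.72 (limma adjusted p = 0.0011). Of the 10 heat shock factors and regulators 6 were lower and 1 higher (median -0.44), and 4 lower and 3 higher after rescaling (median -0.10). HSF1 went from 28.8 to 16.4 FPKM (-0.77, limma adjusted p = 0.0005), HSP90AA1 fell by 1.54 (limma adjusted p = 6.5e-06) and HDAC6, a cytoplasmic deacetylase of HSP90, rose by 1.39 (limma adjusted p = 9.2e-07). Of the 12 other HSF1 targets 10 were lower and none higher (median -1.12), and 9 lower and 1 higher after rescaling (median -0.78). FKBP4, a co-chaperone of HSP90 held in both of the last 2 lists, fell by 1.91 (limma adjusted p = 5.1e-06), HSPB1 (HSP27) by 1.90 (limma adjusted p = 7.5e-05) and HSPE1, the mitochondrial HSP10, by 1.64 (limma adjusted p = 6.4e-05).

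Between the end of heat and 36 h, the lists had 5, 11, 9, 7 and 10 genes called lower and 1, 1, 2, 1 and 0 called higher, in the order other HSP70 genes, exchange factors, J-domain partners, regulators and other HSF1 targets. After rescaling to the same sum the counts were 4, 6, 6, 4 and 9 lower and 1, 3, 3, 1 and 0 higher. Of all tested genes, 35% were lower and 28.8% higher as deposited, and 19.3% lower and 43.7% higher after rescaling. DNAJB1 fell by 2.84 (limma adjusted p = 7e-07; by 2.50 after rescaling), from 182 to 24.2 FPKM, which is close to its control level of 27.6 FPKM. HSP90AA1 fell by 2.21 (limma adjusted p = 7.4e-07; by 1.87 after rescaling), to 181 FPKM, which is below its control level, as was the case for HSPH1. This comparison and the one with control share the HS0.5-R36 libraries, so their counts are not independent.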

How the data were processed

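Per the submitters' processing notes, bcl2fastq made the base calls and HISAT2 2.0.5 the alignments. The authors deposited FPKM per gene, with gene length and coordinates; genome build, annotation, counter and strand use were not stated in the sources used here. FPKM times length gave whole multiples for 100% of values (tolerance 1e-06), from which reads were recovered. In limma 3.58.1 (R 4.3.3), log2(FPKM + 1) of genes at 1 FPKM or more in at least 3 libraries was fitted over all 9 libraries, 1 mean per group, with trended empirical Bayes moderation. The fit recovered changes set in HS0.5 in data simulated with the same dispersion for every gene. That simulation held no shifted HS0.5-R36 scale and no outlying library, and comparisons with HS0.5-R36 were not checked in it. Ratios had exact permutation tests in Python 3.11.15 (scipy 1.17.1). Alternatives covered pseudocount, filters, scalings, weights, trend, groups fitted, replicate blocks, voom, length trend and leaving out each library. Read ratios were corrected by the library sizes implied by FPKM, and their intervals are exact at 95%. All 5 genes were named in each comparison; of each list, up to 3 genes called each way, or the most expressed where none was. Other symbols came from the file (13457) or the reference table (689). The genes and lists were chosen with earlier results of these data known. No sequence was used here. One planned cell type marker is not reported here.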

Additional observations from a re-analysis of the deposited data

How the results depend on the processing

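Of the 15 log2 changes of the 5 genes, the calls of HSPA6 and HSPH1 in all comparisons, of HSP70.2 at the end of heat, of HSPA4 at 36 h against control, and of all 5 genes between HS0.5 and HS0.5-R36 were the same under each alternative run. The number of genes called in HS0.5 against control, 415, was 193 with no filter, 243 with a filter at FPKM of 5, 199 after rescaling to the same sum, 5163 with library weights, 119 with only those groups fitted, and 88 to 457 with 1 library left out. HSPA8 at the end of heat was called after quantile normalization (0.53) and with library weights (0.40), and ranged from 0.26 to 0.48 with 1 library left out. HSPA4 was called with library weights (0.25). With the length trend removed, neither was called, at 0.27 for HSPA8 (limma adjusted p = 0.21) and 0.06 for HSPA4 (limma adjusted p = 0.71). HSPA8 at 36 h against control was -0.10 after rescaling to the same sum, -0.12 with voom and 0.15 after quantile normalization, and -0.51 to -0.32 with 1 library left out. HSP70.2 at 36 h against control ranged from 0.58 to 0.79 with 1 library left out. Of the partner lists, 4 genes were called at the end of heat, 2 with no filter, 31 with library weights, 1 with only those groups fitted, 8 with the length trend removed, and 1 to 7 with 1 library left out. The cause of these changes was not tested.

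Same-numbered libraries had correlations of -0.43 to 0.26 once group means were removed. Differently numbered libraries were not compared, so whether replicate numbers pair the libraries is not settled. With the replicate number as a block, 221 genes were called in HS0.5 against control, HSP90AA1 was lost there (limma adjusted p = 0.064), and no call of the 5 genes changed. The share of called genes that were higher in HS0.5-R36 than in control was 45.2% as deposited, 69.1% after rescaling to the same sum and 67.7% with voom, and against HS0.5 it was 45.1%, 69.3% and 70%. In HS0.5 against control that share was 63.4%, and 50.2% with voom. Voom and the removal of the length trend were added after the data were seen. HSPA6 at 36 h had no value when only those groups were fitted, since it did not pass the filter. Both planned count models on the recovered reads were not run, because the deposited unit is FPKM, nor was the planned promoter search. With 1 to 14 reads of HSPA6 per library outside HS0.5, the limma test could not detect small differences of this gene between control and HS0.5-R36. Its pooled read ratio between them was 3.77 (1.41 to 12.7, counting error only).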
